A study of Mus musculus with 8 samples.

Results

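RNA polymerase II (Pol II) was measured over 6 genes of hepatic glucose production and amino acid breakdown: Pcx, Pck1, Fbp1, G6pc, Ppargc1a and Tat. They are 6 of the 21887 protein-coding genes in the RefSeq table of mouse assembly GRCm38.p6, and all 6 were found there. Each was taken as its annotated span with 10 kb either side, and the tags that fell in that region were counted. The genes were chosen by name with their tag densities in these same libraries known, so their densities, and the tags within Fbp1 and Tat, are described here and not tested.

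The measurements came from ChIA-PET of livers of wild type C57BL/6 mice aged 3 to 6 months, fed freely under 12 h of light and 12 h of dark with livers taken at ZT06, in the middle of the light period, or at ZT18, in the middle of the dark period. In this assay chromatin is crosslinked, fragments are pulled down with a Pol II antibody (here 8WG16, which recognises the repeats in the tail of the largest subunit), DNA ends held together are joined through a linker, and a short tag is read from each side of the junction as a paired-end tag (PET). Chromatin of 3 to 7 livers was pooled for each immunoprecipitation, and there were 3 experiments: JM08, with 2 libraries at each time point, and JM11 and JM12, with 1 at each. JM08 and JM12 were fixed with 1.5 mM EGS, a crosslinker that bridges proteins over a longer span, and 1% formaldehyde, and JM11 with 1% formaldehyde alone. The deposited table marks each PET with its experiment and a linker tag but with no library or time point, so day and night are combined in every value below, ZT18 was not compared with ZT06, and no spread between libraries can be given. Whether the 2 linker tags mark libraries or time points was not known here, so values by tag are given as subsets of an experiment without a meaning of their own. All intervals are 95% and cover counting error only. Those of densities and ratios count both ends of a PET as separate events. They are thus too narrow where many PETs have both ends in a region. The crosslinking also cannot be told apart from other differences between experiments, since formaldehyde alone was used in 1 of them.

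Gluconeogenesis makes glucose from lactate, glycerol and amino acids, and the liver is its main site during fasting. Its dedicated steps bypass the irreversible reactions of glycolysis: pyruvate carboxylase (Pcx) makes oxaloacetate in mitochondria, the cytosolic phosphoenolpyruvate carboxykinase (Pck1) turns it into phosphoenolpyruvate, fructose-1,6-bisphosphatase (Fbp1) removes a phosphate from fructose 1,6-bisphosphate, and the catalytic subunit of glucose-6-phosphatase (G6pc) releases free glucose. Ppargc1a encodes PGC-1alpha, a transcriptional coactivator that glucagon signalling induces in fasted liver and that acts on Pck1 and G6pc. Tat, tyrosine aminotransferase, starts the breakdown of tyrosine and is a long-studied target of glucocorticoids in hepatocytes.

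After PETs with a mitochondrial end were set aside, 474466 PETs remained in JM08, 1438852 in JM11 and 837971 in JM12. The density of PET ends over a region is given relative to the mean of all nuclear ends of the same experiment, which was 3.49, 10.6 and 6.16 ends per 10 kb, so that 1 is the nuclear mean and values of long and short genes are per base. Hepatocyte markers were dense: 6, 5 and 6 of 6 (Alb, Apoa1, Apoa2, Trf, Ttr, Cps1) were at or above 2 times the nuclear mean in JM08, JM11 and JM12. Of all protein-coding genes, 24.4%, 2.77% and 20.1% were, so none at that level in a small set says little by itself. Of 3 endothelial and 3 stellate cell markers none was. Of 4 leukocyte markers only Cd68 was in each experiment, with 4, 5 and 1 ends in the gene itself, and of 3 cholangiocyte markers only Sox9 was, in JM08 and JM12. In such bulk chromatin a lower share of cells and less Pol II per cell cannot be told apart.

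The sequences around the annotated starts are shown for 4 members because the starts of Pck1, G6pc and Tat were where their PET ends were densest or nearly so. That of Ppargc1a is shown as a start without such density, with 1, 3 and 0 ends within 1 kb. Each is 250 bases before to 50 bases after the start, 5′ to 3′ on the gene's strand, from RefSeq on GRCm38.p6: Pck1 at chr2:173152823-173153122 (plus strand), G6pc at chr11:101367466-101367765 (plus strand), Tat at chr8:109990186-109990485 (plus strand) and Ppargc1a at chr5:51567676-51567975 (minus strand). Capitals mark matches to the motifs searched for.
Pck1: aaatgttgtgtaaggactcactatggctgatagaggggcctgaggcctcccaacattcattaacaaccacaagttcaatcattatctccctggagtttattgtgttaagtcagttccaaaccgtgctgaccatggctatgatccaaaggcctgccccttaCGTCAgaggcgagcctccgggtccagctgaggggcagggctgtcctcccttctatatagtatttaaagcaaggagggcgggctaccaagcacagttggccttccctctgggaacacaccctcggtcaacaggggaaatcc
G6pc: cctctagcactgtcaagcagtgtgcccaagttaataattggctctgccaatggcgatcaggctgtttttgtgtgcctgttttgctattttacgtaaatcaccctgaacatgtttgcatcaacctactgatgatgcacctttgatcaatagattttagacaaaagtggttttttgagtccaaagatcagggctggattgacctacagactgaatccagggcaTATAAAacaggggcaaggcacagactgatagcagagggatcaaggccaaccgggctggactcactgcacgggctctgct
Tat: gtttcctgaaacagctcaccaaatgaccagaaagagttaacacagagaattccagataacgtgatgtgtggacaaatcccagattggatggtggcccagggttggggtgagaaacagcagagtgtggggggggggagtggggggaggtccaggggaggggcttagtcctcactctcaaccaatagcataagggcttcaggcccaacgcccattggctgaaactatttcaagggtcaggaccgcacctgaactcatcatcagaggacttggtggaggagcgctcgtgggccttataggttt
Ppargc1a: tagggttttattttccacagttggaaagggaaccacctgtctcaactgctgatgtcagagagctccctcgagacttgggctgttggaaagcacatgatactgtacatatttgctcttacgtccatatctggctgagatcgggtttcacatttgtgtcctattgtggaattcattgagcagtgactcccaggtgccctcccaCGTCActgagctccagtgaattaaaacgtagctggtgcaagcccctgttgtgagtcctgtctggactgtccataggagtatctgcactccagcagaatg
In these 300 bases Pck1 had 23 PET ends in JM08, 20 in JM11 and 2 in JM12. Tat had 30, 12 and 12, and G6pc had 7, 2 and 4. The Ppargc1a stretch had 0 in each experiment. The nuclear mean was 3.49, 10.6 and 6.16 ends per 10 kb, so 0 ends in 300 bases does not set it below the mean.

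The motifs were searched on both strands, with the share of 32851 RefSeq promoter stretches of this length that hold each. TATAAA, the element bound by the TATA-binding protein, was found in G6pc alone, with its first base at position -29 from the start, against 13.6% of all stretches. TGACG, the half-site of the cAMP response element, was found as its reverse complement CGTCA in Pck1, from position -90, and in Ppargc1a, from position -49, against 20.8% of all stretches. CACGTG, the E-box bound by BMAL1 and CLOCK among others, was found in the first promoter of Pcx, from position -248, against 7.15%. None of the member stretches held TGTTCT, a glucocorticoid receptor half-site (19.0% of all), TGTTTAC, a forkhead site (3.65%), TTATGTAA, a PAR bZIP site (0.938%), or TTGCGCAA, a C/EBP site (0.183%). These letters are counted as such, and whether any factor was bound was not measured.

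Pck1, G6pc and Tat, 3 of the 6 genes, had 2 times the nuclear mean or more in every experiment, a level that 2.66% of protein-coding genes reached in all of them. By experiment, 5 members did so in JM08 against 24.4% of protein-coding genes, 3 in JM11 against 2.77%, and 5 in JM12 against 20.1%. Since the members were chosen with these densities known, nothing is read from the difference. Counted from PETs between chromosomes alone, Pcx was at 1.73 in JM08 and 1.93 in JM12, below 2, and Pck1 in JM08 at 32.1. Together the 6 regions held 1819, 1808 and 1157 PET ends, which is 0.192% of the nuclear ends in JM08, 0.0628% in JM11 and 0.0690% in JM12, on 0.0348% of the nuclear length. The median protein-coding gene was at 1.18, 1.16 and 1.37.

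**Figure D1:**
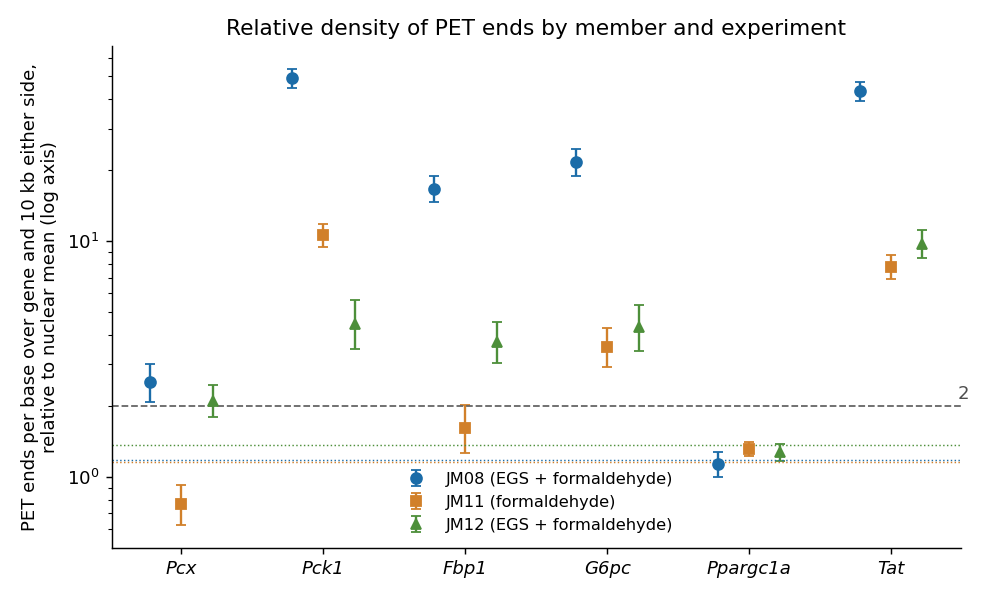
Relative density of PET ends over each gene and 10 kb either side (log axis), by experiment, with 95% intervals for counting error. Dotted lines are the median of 21887 protein-coding genes in the experiment of that colour, and the dashed line is 2 times the nuclear mean. Pck1 and Tat are highest in JM08 and JM11, Pck1 is below Tat in JM12, and Ppargc1a stays near the medians throughout.

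Pcx, which feeds the pathway, had the lowest density of the 6 in JM11 and the second lowest in JM08 and JM12. Over the gene (chr19:4510472-4621752, plus strand) and its flanks there were 115 ends in JM08, 106 in JM11 and 170 in JM12, giving 2.51 (2.07 to 3.02), 0.764 (0.625 to 0.924) and 2.10 (1.80 to 2.44) times the nuclear mean. JM08 and JM12 overlapped, and JM11 was below both and below the nuclear mean. At this gene the flanks mattered: without them the values were 1.91, 0.706 and 1.84, none of which reaches 2. The flank beyond the 3′ end holds Rce1, which encodes a protease of prenylated proteins, with 14, 5 and 23 ends in the shared part, and in JM12 the densest 1 kb of the whole region, 12 ends 114 to 115 kb from the start, lay over it. Pcx has 2 annotated starts 83.8 kb apart. Within 1 kb of the first, at position 4510472, there were 23, 12 and 14 ends, or 32.97, 5.67 and 11.4 times the nuclear mean. Around the second, at position 4594319, there was 1 end in each experiment. The low density of Pcx was thus an average over a long gene whose first start carried signal in all 3 experiments: the interior between the first start and the gene end was at 1.60, 0.667 and 1.69.

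Pck1 (chr2:173153073-173159274, plus strand) was the densest member in JM08 and JM11 and only the second in JM12. It had 448 ends in JM08, 293 in JM11 and 72 in JM12, which is 49.0 (44.6 to 53.8), 10.6 (9.40 to 11.9) and 4.46 (3.49 to 5.62) times the nuclear mean. No 2 of these intervals overlap. Among 21887 protein-coding genes it ranked 3 in JM08, 3 in JM11 and 278 in JM12. Counted over the gene alone, which is 6.2 kb long, it was at 168 (151 to 186) and 33.3 (29.0 to 38.0), first of all genes in JM08 and JM11, and at 12.0 (8.82 to 16.1) and rank 112 in JM12. Its paralog Pck2, the mitochondrial form, had 1, 18 and 8 ends over the gene body, at 0.294, 1.74 and 1.33 times the nuclear mean, and each Pck2 interval lay wholly below that of Pck1 in the same experiment.

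The position of Pck1 relative to Tat changed between experiments. Pck1 had 1.14 times the relative density of Tat in JM08 (0.999 to 1.29) and 1.36 times in JM11 (1.15 to 1.61), but 0.459 times in JM12 (0.346 to 0.603). In JM08 the pair is not separated beyond counting error, and the JM12 interval lies below those of JM08 and JM11. Over the genes alone the ratios were 1.85, 2.01 and 0.610, and with both genes counted from the start in the promoter table the JM08 ratio was 0.992. In JM12 the ratio was between 0.410 and 0.610 under every alternative region and PET subset tried. Against G6pc the ratio of Pck1 was 2.27 (1.93 to 2.68) in JM08, 2.99 (2.40 to 3.75) in JM11 and 1.04 (0.744 to 1.44) in JM12.

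Set against all genes, the low value of Pck1 in JM12 stood at an extreme. Its relative density in JM08 was 10.99 times that in JM12 (8.55 to 14.3), and of the 3981 protein-coding genes with at least 50 ends in both experiments 0 had a higher ratio. The median gene was at 1.13, and the median of the 1410 genes at 2 times the nuclear mean or more in both was 1.80. G6pc (5.01), Fbp1 (4.47) and Tat (4.43) were also high in this ratio, exceeded by 10, 16 and 18 of the 3981 genes. A high JM08 value and a low JM12 value cannot be told apart by this ratio alone. The ratio of JM12 to JM11 for Pck1 was 0.422 (0.321 to 0.548), and 7463 of 7464 genes compared had a higher one. These comparisons share JM12, so they are not independent of each other. Both linker subsets of JM12 showed the low value, at 3.91 (2.64 to 5.58) and 4.97 (3.58 to 6.71) times the nuclear mean. Which animals, libraries or time points contributed to it was not tested, since the table does not name them.

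**Figure D2:**
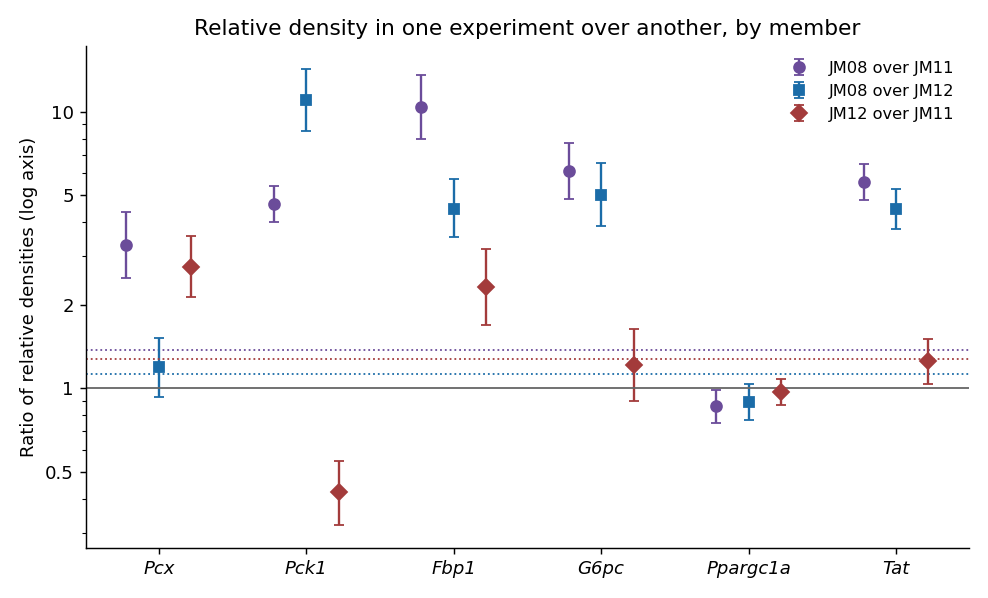
Ratio of each gene's relative density in one experiment to that in another (log axis), with 95% intervals for counting error. Dotted lines are the medians over 3953 genes (JM08 over JM11), 3981 genes (JM08 over JM12) and 7464 genes (JM12 over JM11) with at least 50 ends in both. Pck1 alone is below 1 by more than its interval for JM12 over JM11, and Fbp1 is the highest member for JM08 over JM11.

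Fbp1 (chr13:62864753-62888298, minus strand) had 253 ends in JM08, 74 in JM11 and 100 in JM12, or 16.7 (14.7 to 18.9), 1.61 (1.26 to 2.02) and 3.73 (3.03 to 4.54) times the nuclear mean. JM08 was highest, JM11 lowest, and no intervals overlap. Its ranks were 75, 1890 and 520. The ratio of JM08 to JM11, 10.4 (7.97 to 13.6), was exceeded by 5 of 3953 genes, where the median gene was at 1.37 and the median of 490 genes at 2 times the nuclear mean or more in both at 3.99. Over the gene alone JM11 was at 2.09 (1.56 to 2.74), just above the level of 2 that it missed with its flanks. Fbp2, the muscle form of the enzyme and its neighbour, was at 1.33, 1.01 and 1.66 over its body, and each interval of Fbp1 lay above it.

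G6pc (chr11:101367716-101377903, plus strand), which acts last in the pathway, had 227, 113 and 80 ends in JM08, JM11 and JM12. These are 21.6 (18.9 to 24.6), 3.54 (2.92 to 4.26) and 4.30 (3.41 to 5.36) times the nuclear mean, with ranks 40, 56 and 311. JM08 was above the other two, whose intervals overlap. The ratio of JM08 to JM11 was 6.09, against a median of 3.99 for the 490 genes at 2 times the nuclear mean or more in both. For JM08 to JM12 it was 5.01, against 1.80 for 1410 such genes. G6pc was denser than Fbp1 in JM08 (ratio 1.29, 1.08 to 1.55) and JM11 (2.203, 1.63 to 2.99), and with flanks not separated from it in JM12 (1.15, 0.849 to 1.56). Over the genes alone G6pc was denser than Fbp1 in each, with ratios of 2.62 (2.13 to 3.23), 3.64 (2.54 to 5.26) and 2.003 (1.35 to 2.95). The bodies of its paralogs were lower: G6pc2, the islet form, was at 3.05, 1.79 and 1.73, and the widely expressed G6pc3 at 2.62, 1.29 and 2.96. In JM12 the intervals of G6pc (6.19 to 10.9) and G6pc3 (1.28 to 5.84, from 8 ends) came close without overlapping. With both ends of a PET counted separately, this gap is too small to set them apart.

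Ppargc1a, the coactivator, was the member without enrichment. Over the annotated span (chr5:51454249-52115853, minus strand) and its flanks it had 269, 945 and 533 ends, or 1.13 (1.00 to 1.28), 1.31 (1.23 to 1.40) and 1.27 (1.16 to 1.38) times the nuclear mean, at ranks 11546, 6476 and 12351. These levels are close to those of the median gene. Most of that span is sequence upstream of the start in the promoter table, 548 kb of 662 kb, so the gene was also counted from that start to its end. This gave 1.54 (1.18 to 1.98), 1.17 (0.982 to 1.38) and 1.20 (0.959 to 1.49), and the JM11 and JM12 intervals include 1. Within 1 kb of the start, at position 51567725, there were 1, 3 and 0 ends, with upper limits of 7.99, 4.14 and 2.99 times the nuclear mean. The median start of protein-coding genes was at 2.87, 1.42 and 2.44, below each of these limits.

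Tat (chr8:109986078-109999804, plus strand) was the one member among the 10 densest protein-coding genes of every experiment, with ranks 6, 4 and 9. It had 507 ends in JM08, 277 in JM11 and 202 in JM12, which is 43.1 (39.5 to 47.0), 7.77 (6.88 to 8.74) and 9.73 (8.43 to 11.2) times the nuclear mean. JM08 was highest, and JM11 and JM12 had overlapping intervals. By level over the 3 experiments, among 12142 genes with at least 100 ends over the experiments together, the nearest to Tat were Apoa1 (38.1, 7.28 and 9.22) and its neighbour Apoc3 (36.8, 7.20 and 8.92). For Fbp1 the nearest were Ifrd2 (14.0, 1.68 and 3.85), Trip10 (13.7, 1.69 and 4.41) and Ten1 (12.7, 1.76 and 3.61). The likeness is the distance between log2 values over 3 points, and Apoa1 and Apoc3 lie close enough for their regions to share ends.

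PET ends were concentrated at or just after the start of Pck1, Fbp1, G6pc and Tat in JM08 and JM11, and of Fbp1, G6pc and Tat in JM12. Of the 7 annotated starts of the members, 5 were at 2 times the nuclear mean or more within 1 kb either side in every experiment, where 52.4%, 37.4% and 56.5% of 21263 starts of protein-coding genes were in JM08, JM11 and JM12. The other two were the second start of Pcx and that of Ppargc1a. At the start of Tat, position 109990436, there were 141, 77 and 41 ends, or 202 (170 to 238), 36.4 (28.7 to 45.5) and 33.3 (23.9 to 45.1) times the nuclear mean. It ranked 2, 4 and 40 among all starts. The start of Pck1, position 173153073, had 132, 101 and 15 ends, or 189, 47.7 and 12.2, and ranked 6, 2 and 1390. The start of G6pc had 73, 32 and 21 ends, or 105, 15.1 and 17.0, and that of Fbp1 had 45, 21 and 23, or 64.5, 9.93 and 18.7.

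In 1 kb windows from the start, the densest of Tat was the first in each experiment, chr8:109990436-109991435, with 116, 64 and 32 ends. These are 22.9%, 23.7% and 16.2% of the ends in its windows. The densest 100 bp anywhere in the region held 23, 15 and 10 ends, at most 5.42% of the region's total. No 100 bp of the first window thus held more than 23 of its 116 ends, 15 of 64 and 10 of 32. The counts then declined to 14, 6 and 8 at their lowest before 4 kb, and were 40, 17 and 17 in the window 4 to 5 kb from the start. In the window 8 to 9 kb from it, just before the gene end at 9.4 kb, they were 53, 17 and 17, so that a count above the middle of the gene was seen there in JM08 alone. In JM08 the next windows had 43, 23 and 5 ends, and from 12 kb to 20 kb no window had more than 1. The stretch from 9 kb to 1 kb upstream of the start had at most 6 ends in any window. Of the annotated Tat span, 4.36 kb lies upstream of this start, at 18.4, 3.26 and 4.10 times the nuclear mean, against 124, 22.7 and 27.0 between start and end.

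Pck1 had its densest windows in the first 2 kb in JM08 and JM11, with 117 and 127 ends in JM08 and 84 and 54 in JM11. In JM12 those windows had 11 and 7 ends, and the densest was the third, with 13. The window near the gene end, 6 to 7 kb from the start, had 42, 17 and 7 ends. In the interior, between 1 kb after the start and 1 kb before the end, Pck1 was at 152 (133 to 174), 26.3 (21.8 to 31.6) and 12.8 (8.78 to 17.9). From 8 kb onwards JM08 had no window with more than 1 end. A small group of ends lay 10 to 8 kb upstream, over the lncRNAs Gm36691 and Gm36749, with 8 and 9 ends per window in JM08, 6 and 5 in JM11 and 3 and 0 in JM12.

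G6pc had 67, 27 and 17 ends in its first window and 31, 9 and 5 in the window 8 to 9 kb from the start, of a gene 10.2 kb long. Its highest window between these was 21 in JM08, 10 in JM11 and 8 in JM12. Fbp1 had 31, 16 and 13 ends in the first window and 14, 5 and 10 in the window before it. The windows from 1 to 5 kb had 17, 24, 9 and 17 ends in JM08, 6, 7, 3 and 4 in JM11, and 3, 4, 5 and 2 in JM12. Beyond its end at 23.5 kb, Fbp1 had a further group in JM08, with 13, 8 and 11 ends in the windows from 25 to 28 kb. The same 3 windows had 1, 1 and 0 ends in JM11 and 2, 5 and 3 in JM12. They lie between the annotated spans of Fbp1 and Fbp2, and Fbp2's shared part of the region had 2, 4 and 8 ends. The lncRNA Gm38679 overlaps Fbp1, and its 54, 12 and 17 ends cannot be told apart from those of Fbp1, since PETs carry no strand of transcription.

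**Figure D3:**
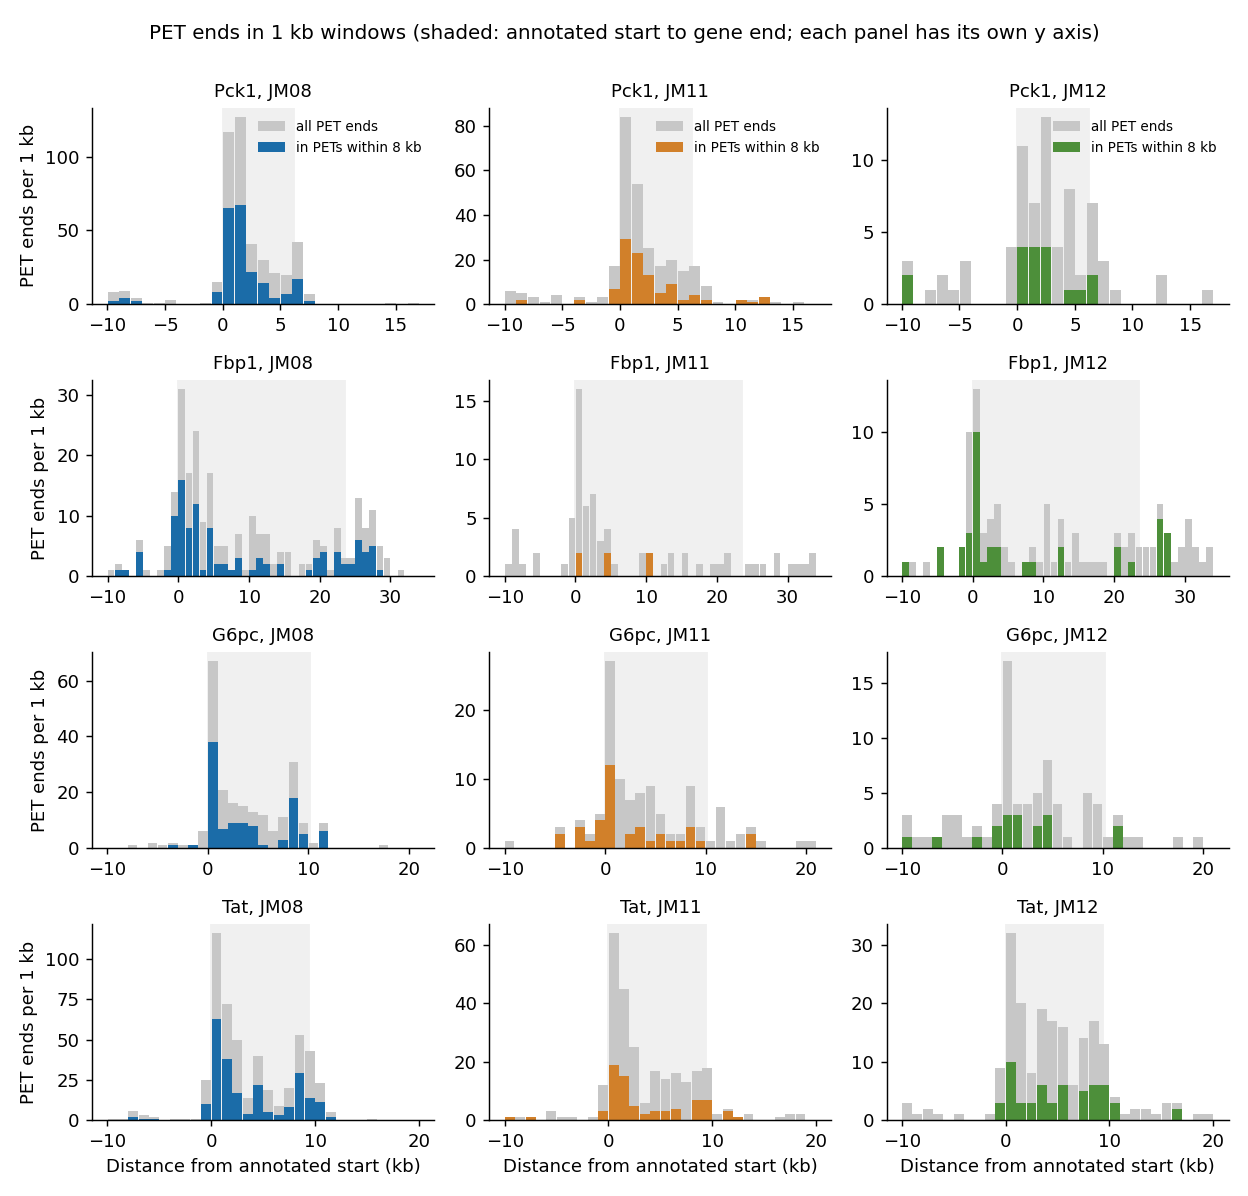
PET ends in 1 kb windows by distance from the annotated start, for Pck1, Fbp1, G6pc and Tat (rows) in JM08, JM11 and JM12 (columns). Grey bars are all ends, coloured bars are the ends of PETs with both ends within 8 kb, shading spans the annotated start to the gene end, and each panel has its own linear axis from 0. The first window is the densest of Fbp1, G6pc and Tat in each experiment, while Pck1 in JM12 has no window above 13 ends.

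PETs whose ends lay within 8 kb of each other made up more of the ends at Pck1, Fbp1, G6pc and Tat than at the median gene in JM08. In JM08 the shares were 47.8% (41.9 to 53.6%) for Pck1, 43.5% (35.6 to 51.4%) for Fbp1, 46.7% (38.3 to 54.9%) for G6pc and 45.4% (39.8 to 50.9%) for Tat. The median of 4304 genes with at least 50 ends was 31.2%, and that of the 2038 of them at 2 times the nuclear mean or more was 41.9%, close to the lower limit of Pck1 and within the intervals of the other three. Pcx had 47.0% (35.1 to 58.6%), and Ppargc1a, at 20.1% (13.9 to 27.3%), was below both medians.

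In JM11, Pck1 had 35.5% (28.4 to 42.9%), G6pc 33.6% (22.4 to 45.9%) and Tat 28.2% (21.3 to 35.7%), all above the median gene at 7.69%. The median of the 576 genes at 2 times the nuclear mean or more was 26.0%, within the intervals of G6pc and Tat and below that of Pck1. Fbp1 had 8.11% there, from 3 PETs, with an interval of 1.74 to 21.2% that does not overlap those of Pck1, G6pc and Tat. In JM12 it had the highest share of the 6, 37.0% (24.9 to 49.9%), from 19 PETs, though its interval overlaps those of Pck1 (25.0%), G6pc (22.5%) and Tat (28.7%). The median gene of JM12 was at 17.3%, and that of its 2533 genes at 2 times the nuclear mean or more at 23.2%. The latter lies within the intervals of Pck1, G6pc and Tat and just below that of Fbp1. Tat differed by less than its intervals between JM11 and JM12.

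**Figure D4:**
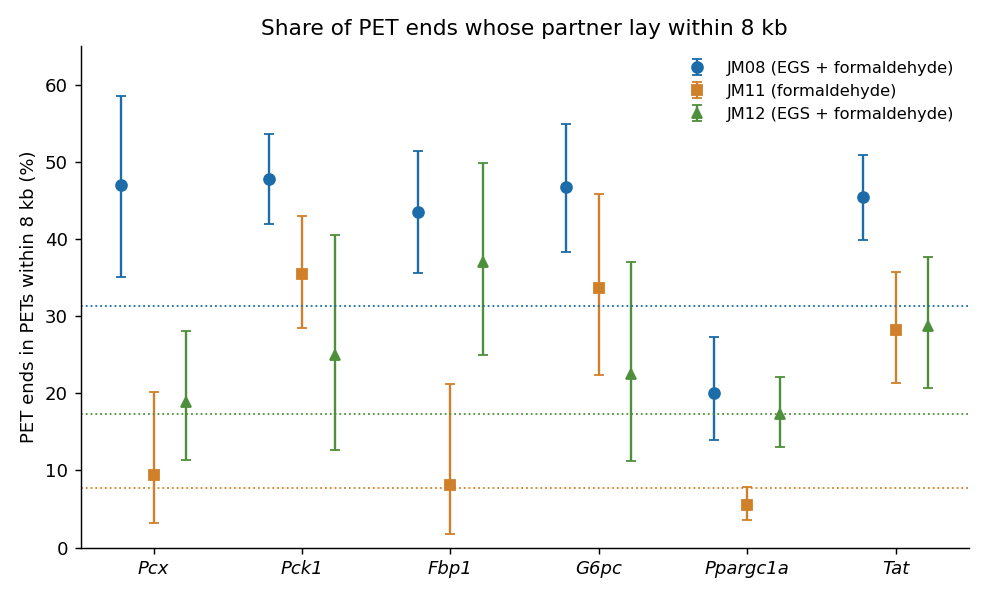
Percentage of the PET ends in each region that belong to PETs with both ends within 8 kb, by experiment, with 95% intervals computed over PETs. Dotted lines are the medians of genes with at least 50 ends in the experiment of that colour (31.2%, 7.69% and 17.3%). In JM11, Pck1, G6pc and Tat lie above the median by more than their intervals, and Fbp1 and Pcx do not.

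Most of these short PETs joined positions less than 1 kb apart, as did 93.4%, 91.2% and 87.8% of all nuclear PETs within 8 kb. The lowest share among the members was at G6pc in JM12, with 6 of 9. Tat had 115, 39 and 29 PETs with both ends in its region, of which 115, 37 and 29 spanned less than 1 kb, with medians of 132, 266 and 225 bp. Pck1 had 107, 52 and 10, with medians of 125, 239 and 382 bp, and G6pc had 53, 19 and 9, with medians of 181, 321 and 815 bp. Over all nuclear PETs within 8 kb the medians were 230, 376 and 230 bp. No PET of Tat, Pck1, G6pc or Fbp1 joined the first 1 kb to the last 2 kb of the gene. A PET of this length can come from 1 chromatin fragment joined to itself, and that was not tested here.

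Fbp1 had 58 such PETs in JM08, 3 in JM11 and 18 in JM12, while Tat had 115, 39 and 29. A PET was found in 29, 3 and 14 of the 1 kb windows of Fbp1, against 16, 16 and 13 of those of Tat, which is shorter. By length 51, 3 and 16 spanned less than 1 kb, and in JM08 another 3 spanned 8.56, 11.1 and 11.4 kb within the region. Of these, 1 ran from 218 bp to 8779 bp after the start, 1 from 1134 bp before it to 10302 bp after, and the remaining one from 4134 bp to 15235 bp. All 3 lay at different positions, and none had a counterpart in JM11 or JM12, where no PET within the region was longer than 3728 bp. A count of 0 was taken to allow up to 3 PETs.

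**Figure D5:**
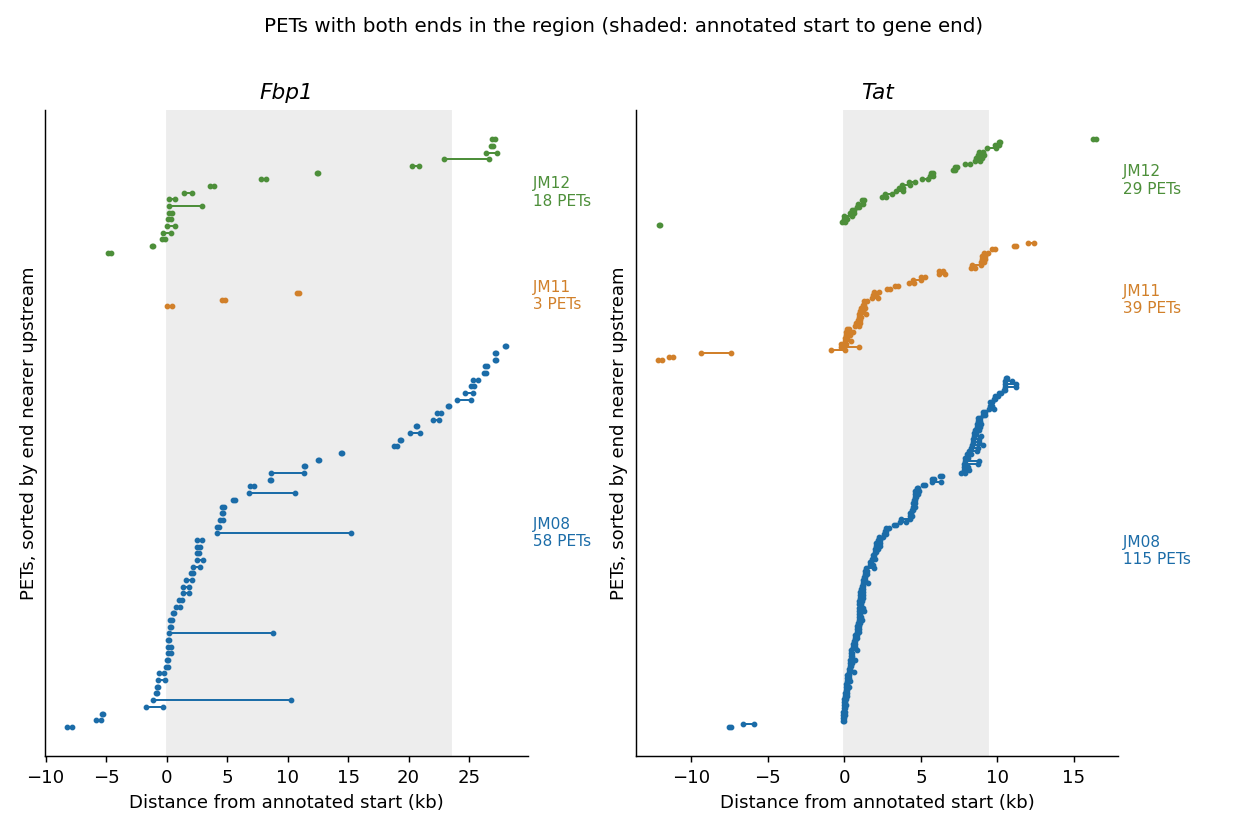
Each line is a PET with both ends in the region of Fbp1 (left) or Tat (right), drawn by distance of its ends from the annotated start and sorted within each experiment. Shading spans the annotated start to the gene end. Fbp1 has 58, 3 and 18 PETs in JM08, JM11 and JM12 and Tat has 115, 39 and 29, and the only PETs longer than 8 kb are 3 of Fbp1 in JM08.

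Contacts of 8 kb to 1 Mb were few at every member. There were 15 in all, 9 in JM08, 1 in JM11 and 5 in JM12: 4 each at Pcx, Fbp1 and Tat, 2 at Pck1, 1 at G6pc and 0 at Ppargc1a. Contacts of this range were not counted over all genes, so these counts have no background. Of all nuclear PETs, 4.36%, 5.10% and 5.02% lay within 1 chromosome and more than 8 kb apart, at any distance. At Tat, 2 PETs of JM08 with different linker tags left the gene, from 3.59 kb after its start and 0.1 kb before it, and ended 236 bp apart, 19.5 and 19.3 kb upstream. The place where they ended, chr8:109970934-109971170 and 1 kb either side, had 3, 1 and 1 ends in all. The nearest protein-coding gene there was Marveld3, 8.73 kb away. Another PET of JM08 reached the lncRNA 8030455M16Rik, 51.1 kb away, and the single contact of JM11 reached St3gal2, a sialyltransferase gene 965 kb away.

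At Pcx, 2 contacts of JM12, with different linker tags, joined points 0.036 and 0.145 kb after the first start to the gene's interior 31.9 and 38.3 kb after it. The other two joined the 3′ part of the gene to itself and to Gm960. At Pck1, 1 contact of JM08 ran from 1.32 kb after the start to Gm40011, 28.7 kb upstream, and 1 of JM12 joined a point 5.69 kb upstream of the start to one 6.57 kb after it, just beyond the gene end. At G6pc the 1 contact, in JM12, began 5.18 kb upstream and reached Hdac5, which encodes a class IIa histone deacetylase, 857 kb away. It was absent with a flank of 2.5 kb. Fbp1 had 1 contact that left its region, in JM08, to a point 19.4 kb upstream. Apart from the pair at Tat, no 2 contacts of a member reached the same 1 kb outside its region.

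No PET joined any of the 15 pairs of members, which all lie on different chromosomes. The count expected by chance was not computed, so nothing is read from this absence. Partner ends on other chromosomes were spread over 19 or 20 chromosomes for each member, and the most frequent held at most 10.8% of them. For Tat in JM08, 62.9% (56.7 to 68.8%) of 259 such partners lay at or within 10 kb of a protein-coding gene, against 57.2% of all between-chromosome ends, which its interval includes. For Pck1 the shares were 58.4%, 60.1% and 55.1%, against 57.2%, 53.2% and 58.8% of all ends, again within its intervals.

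The other genes of these pathways were read from 3 lists. Of 20 further gluconeogenic, shared glycolytic and shuttle genes, 17 were at or above 2 times the nuclear mean in JM08, 6 in JM11 and 15 in JM12, with list medians of 4.25, 1.49 and 2.49. Of all protein-coding genes, 24.4%, 2.77% and 20.1% were, with medians of 1.18, 1.16 and 1.37. The highest by median were Gpt, alanine aminotransferase (8.75, 2.93 and 6.23), and Slc37a4, the glucose-6-phosphate transporter that works with G6pc (10.8, 2.33 and 5.43). The lowest were Pgam1, Got2 and Pgk1, which are shared with glycolysis or the malate-aspartate shuttle, with Pgk1 at 1.33, 0.775 and 1.02. These levels include the flanks, and some genes reached 2 through them. In JM08 Pck2 was at 3.47 with 1 of its 36 ends in the gene. Fbp2, the neighbour of Fbp1, was at 4.91 in JM08 and 2.19 in JM12, but at 1.33 and 1.66 over the gene alone. Others, such as Gpt at 26.3, 4.49 and 9.91, were denser over the gene alone.

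Of 18 hormonal and transcriptional regulators, 11, 4 and 13 were at or above that level, against 24.4%, 2.77% and 20.1% of all protein-coding genes. The list medians were 4.44, 1.38 and 2.79. Cebpa (26.1, 6.52 and 10.5) and Cebpb (17.7, 4.66 and 7.10), C/EBP factors that act on the Pck1 and G6pc promoters, were highest, followed by Klf15 (10.0, 2.42 and 4.32), a fasting-induced factor. In JM12 the value of Cebpa was above that of every member, though within the interval of Tat (9.73, 8.43 to 11.2). Nr3c1, the glucocorticoid receptor (1.20, 1.27 and 1.74), Creb1 (1.31, 1.04 and 1.20) and Insr, the insulin receptor (1.20, 0.897 and 1.61), were lowest by median. Ppargc1a, at 1.13, 1.31 and 1.27, was above Insr in JM11 and below Nr3c1 and Insr in JM12. Of 5 further genes of phenylalanine and tyrosine breakdown, 5, 1 and 5 were at or above it. Hpd, which takes up the product of Tat, was the densest at 12.7, 2.45 and 4.26. All 5 were below Tat in each experiment.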

How the data were processed

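The authors deposited 1 table of all PETs, with no header line. Its values give the experiment, a linker tag, and the chromosome and position of both ends. The submitters' processing notes name mm10 and Bowtie2, with no version. How duplicates were removed, and which filters were used, is not stated there. Genes and promoter sequences came from RefSeq on GRCm38.p6, the same assembly. The table held 2753554 PETs, and 2265 with a mitochondrial end were set aside.

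PET ends were counted over each of 21887 protein-coding genes and 10 kb either side, and divided by the experiment's mean per base, with the sum of each chromosome's highest PET position (2.7222e+09 bp) as nuclear length. Intervals are exact Poisson limits for densities, conditional exact binomial limits for ratios of 2 counts, and Clopper-Pearson limits for shares, taken over PETs for ends in PETs within 8 kb. Limits for densities and ratios take ends as independent. At Pck1 in JM08, 214 of 448 ends came from 107 PETs within 8 kb, so these limits are too narrow there. PETs share sequenced copies of molecules, so all intervals cover counting error at most. Contacts were PETs 8 kb to 1 Mb apart with an end in the region. A count of 0 PETs was taken to allow up to 3, a fixed rule apart from the exact limits. Windows of 1 kb ran from the start in the promoter table. The named genes were the 6 members, their paralogs and neighbours, the 3 highest and 3 lowest of each list by median, far-end genes of contacts, and the 3 genes nearest to Tat and to Fbp1 in log2 relative density among genes with at least 100 ends over the experiments together and at least 1 in each. Some genes that this rule names are not reported here.

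Members and lists were chosen with earlier results of these data known. No p-values were computed, because the table names no library. Counting was tested on simulated data. Tools were Python 3.11.15, numpy 2.4.6, pandas 2.3.3, scipy 1.17.1 and matplotlib 3.10.9. Alternatives varied the flank, threshold, scaling, duplicate handling, linker subset, PET class (between chromosomes alone), distance limits and window width.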

Additional observations from a re-analysis of the deposited data

How the results depend on the processing

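Of 314 alternative values for 54 results, 239 stayed within the counting interval or within 1.5 times the count, 74 moved and 1 changed direction. The ratio of Pck1 to Tat moved in JM08 to 1.42 with a flank of 2.5 kb, to 1.85 over the gene alone and, reversing its side of 1, to 0.992 from the start in the promoter table. In JM11 it moved to 1.70 and 2.01 with those narrower regions, and in JM12 to 0.610 over the gene alone. At 4 times the nuclear mean, 3 members passed in JM12, and 2 and 10 of the 43 other pathway genes in JM11 and JM12. The share of all protein-coding genes at this higher level was not counted. These counts thus have no background to be set against, and nothing is read from them. In every experiment, the 18 member densities stayed in their intervals after near-duplicates within 10 bp were collapsed, which removed 1.96% of PETs in JM08, 0.00111% in JM11 and 0.101% in JM12. PETs whose end positions no other PET shared were 349469 of 474466 in JM08, 1418345 of 1438852 in JM11 and 779849 of 837971 in JM12. With these PETs alone 17 member densities stayed and 1 moved, that of Tat in JM08, from 43.1 to 47.8. The linker subsets of JM11 differed, with 12.5 and 6.37 for Tat and 15.4 and 9.13 for Pck1; the cause was not tested. With PETs between chromosomes alone, 10 of the 18 member densities moved, all to lower values; Pcx was at 1.73 in JM08, and Pck1 in JM08 at 32.1. Among contacts, that of G6pc was lost with a flank of 2.5 kb, and an upper limit of 2 Mb added 2 at Ppargc1a. The Tat and Fbp1 windows 0 to 1 kb from the start remained densest without each experiment in turn, with 20.04 to 23.0% and 12.5 to 16.7% of the ends. The 15 contacts of the 6 genes are too few to compare experiments, and JM11, the most deeply sequenced, had 1 of them. No paired analysis was possible because the deposited table does not name libraries.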
